A study of Homo sapiens with 7 samples.

Results

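A set of 10 autophagy and mitophagy genes, out of 32738 gene rows in the table, was followed in HUDEP-2 cells in which an enhancer of TMCC2 was targeted by CRISPR interference, in which a guide RNA brings an inactive Cas9 with a repressor to chosen DNA. They were taken by symbol from a fixed list: the mitophagy receptors BNIP3L, BNIP3 and FUNDC1, the initiating kinase ULK1, the phosphoinositide-binding protein WIPI1, the conjugation enzyme ATG7, the protease ATG4A, and the ATG8 family members MAP1LC3B, GABARAPL1 and GABARAPL2. The rule uses no measured value, though the list was chosen with earlier results of these data known. All 10 symbols were found and had enough reads to be tested. HUDEP-2 is an immortalised human erythroid progenitor line from cord blood. Cells were grown with SCF, erythropoietin, dexamethasone and doxycycline, infected with lentivirus and differentiated for 72 h in a medium with human plasma and serum, transferrin and insulin, and with erythropoietin and heparin at 3 IU/ml each. From their RNA, Smart-seq2 libraries, which do not mark strand, were made. Guide 1 and guide 2, each aimed at the TMCC2 enhancer, had 2 libraries each, and the non-targeting guide had 3. All 7 libraries carry the interference system and the same 72 h of differentiation, and no undifferentiated or uninfected cells are among them. The labels do not say whether replicates were separate cultures, so the p-values measure the spread between these libraries, which may be technical.

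Maturing red cells remove their mitochondria and most other organelles. In mitophagy, a receptor in the outer mitochondrial membrane binds ATG8 proteins on a growing membrane, which closes around the mitochondrion and carries it to the lysosome. ULK1 starts the process, WIPI proteins read the lipid PI3P on the new membrane, ATG4 proteases trim ATG8 precursors and ATG7 activates them for attachment to lipid. BNIP3L, also called NIX, is the receptor known for clearing mitochondria from mouse reticulocytes, and ULK1 is also needed there for timely clearance.

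The guide sequences are shown because they define the 3 groups. They are given 5′ to 3′ as the labels list them.
Guide 1: gtcgtgctgcaggtgaagtg
Guide 2: ccatccttcagagtaaacag
Non-targeting: atcgcgaggacccgttccgcc
The targeting guides have 20 bases and the non-targeting guide has 21.

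Promoter sequences were read from RefSeq on GRCh38.p14 for 9 of the 10 genes (BNIP3L was not matched), since these genes were set against common erythroid and stress motifs on both strands of the 250 bases before the transcription start. The core letters of hypoxia-responsive elements, ACGTG, occurred in 3 of 9 (BNIP3, GABARAPL2 and ATG4A), against 18.7% of 27305 promoters of the same length. The palindrome CACGTG, an E-box that also holds ACGTG on each strand, occurred in BNIP3 alone of the 9, against 6.49% of all promoters. CCAAT occurred in 3 of 9 (BNIP3, ATG4A and WIPI1), against 33.0% of all. The GATA letters AGATAA or TGATAA occurred in 0 of 9 windows, against 14.9% of all. The windows around the ACGTG matches follow, with 60 bases each on the gene's own strand and the match in capitals. In ATG4A the match is on the opposite strand and reads CACGT.
BNIP3, chr10:131982025-131982084, minus strand: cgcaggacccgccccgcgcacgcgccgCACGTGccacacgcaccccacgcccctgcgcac
GABARAPL2, chr16:75566247-75566306, plus strand: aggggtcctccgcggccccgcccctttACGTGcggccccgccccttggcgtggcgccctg
ATG4A, chrX:108091538-108091597, plus strand: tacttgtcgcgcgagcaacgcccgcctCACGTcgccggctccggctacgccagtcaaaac
The matches begin 134, 105 and 213 bases before the start of BNIP3, GABARAPL2 and ATG4A in that order. A match describes these letters only, and no binding was measured here. Bases before the start were GC-rich in BNIP3 (81.6% G or C), WIPI1 (79.6%) and ULK1 (78.0%), and least so in GABARAPL1 (51.6%).

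Library totals lay between 9780800 and 11350113 counts, and HBB, adult beta-globin, took 17.1% to 20.1% of them. TMCC2 was at 229 and 219 CPM with guide 1, at 229 and 260 CPM with guide 2, and at 832, 839 and 937 CPM with the non-targeting guide, so the target was lower in each guide library than in each control. CPM here are counts scaled to the TMM-adjusted library size. Erythroid markers summed to 240669 to 251981 CPM of total counts with the guides and to 220296 to 248898 CPM with the non-targeting guide; 0 of 8 were called. Markers of megakaryocytes and platelets summed to 183 to 213 CPM with the guides and to 176 to 208 CPM with the non-targeting guide, with PF4 and PPBP at 0. Progenitor markers summed to 32.0 to 41.0 CPM with the guides and to 32.4 to 38.1 CPM with the non-targeting guide, with MPO at 0. Mast cell and basophil markers summed to 7.63 to 10.7 CPM with the guides and to 9.52 to 11.8 CPM with the non-targeting guide, with MS4A2, HDC and CLC at 0. Markers of neutrophils and monocytes, of lymphocytes, and of fibroblasts and endothelium each summed to at most 3.50 CPM in any library. The ranges of the guides and the controls overlapped in each of these lists. In bulk RNA, fewer cells of one kind and less RNA per cell cannot be told apart.

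Among the controls, non-targeting replicate 1 differed from the rest, which bears on several of the 10 genes. Its deviation from the mean of the 7 libraries followed the GC content of transcripts with a rank correlation of -0.684 across genes, against -0.311 to 0.421 in the other libraries. Tested genes with under 40% GC differed there by a median of 0.46 (log2), and those with 60% GC or more differed by a median of -0.29 relative to the mean of the other 6. Of the 10 genes, it held the highest level of BNIP3L, GABARAPL2 and MAP1LC3B and the lowest of ULK1 and WIPI1. Against the mean of the other 6 it differed by 0.37 (log2) in GABARAPL2, 0.31 in BNIP3L, 0.22 in MAP1LC3B, -0.19 in WIPI1 and -0.31 in ULK1. The GC contents of these transcripts were 44.6%, 45.6%, 50.4%, 49.4% and 65.3% in the same order. ULK1 stood close to the median of its GC class, whereas FUNDC1, with 39.2% GC and at most 47 counts, differed by -0.34 where its class had a median of 0.46. For the 5 genes at an extreme in that library, and for FUNDC1, the value without it stands beside the result. Guide 2 replicate 2 had the correlation of -0.311, and non-targeting replicates 2 and 3 had 0.421 and 0.315. Leaving out non-targeting replicate 1 therefore does not even out this trend between guide 2 and the controls.

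**Figure D1:**
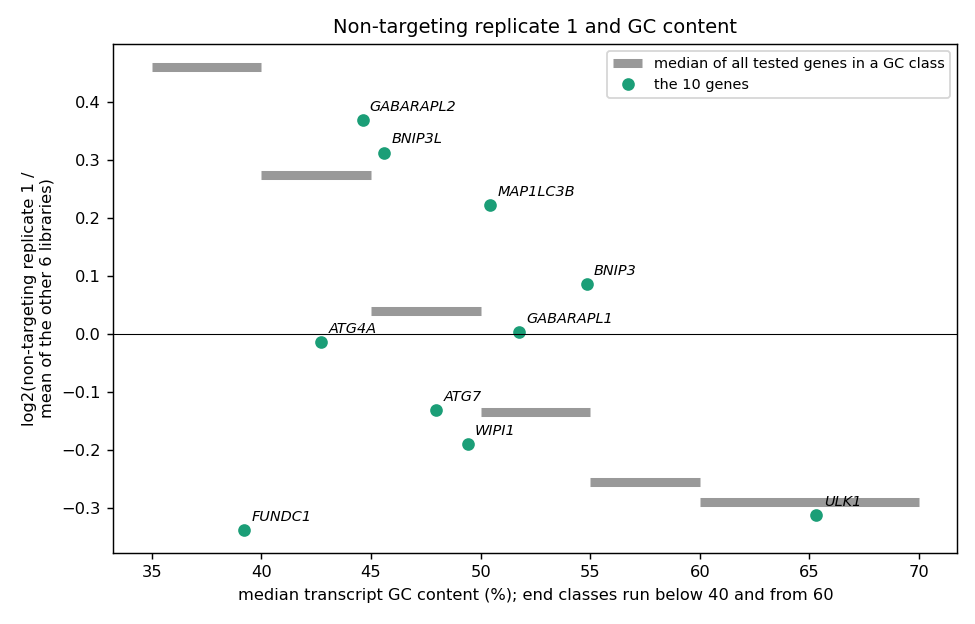
Log2 ratio of non-targeting replicate 1 over the mean of the other 6 libraries (vertical axis) by median transcript GC content in percent (horizontal axis). Grey bars are medians of all tested genes in a GC class, falling from 0.46 below 40% GC to -0.29 at 60% or more, and green points are the 10 genes, from GABARAPL2 at 0.37 to FUNDC1 at -0.34.

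The question of the comparisons was whether RNA of the mitophagy genes differed in cells with lowered TMCC2. None of the 10 genes was called in any of the 4 comparisons at an adjusted p under 0.05 (edgeR quasi-likelihood test, Benjamini-Hochberg adjustment over 10212 genes), and none had an unadjusted p under 0.05. For both guides against non-targeting, 0 of 10 were called against 0.0196% of all tested genes. For guide 1 the count was 0 of 10 against 0.0294%, for guide 2 it was 0 of 10 against 0.00979%, and for guide 2 against guide 1 it was 0 of 10 against 0%. With so few genes called anywhere, these counts do not set the 10 genes apart from the rest. Unadjusted p under 0.05 were found in 4.19%, 4.78%, 2.75% and 2.86% of all tested genes in the same order, and DESeq2 also called 0 of the 10 in each. Over the 10 genes the estimated level with both guides was between 88.0% (FUNDC1) and 112% (ULK1) of non-targeting. The 95% intervals were wider and reached from 59.5% (FUNDC1) to 131% (ULK1). The median log2 fold change of the 10 was 0.031, against -0.015 over all tested genes, and the median size without sign was 0.0686 against 0.114. The tested genes were not matched to the 10 in read counts, so these sizes are not compared like for like.

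**Figure D2:**
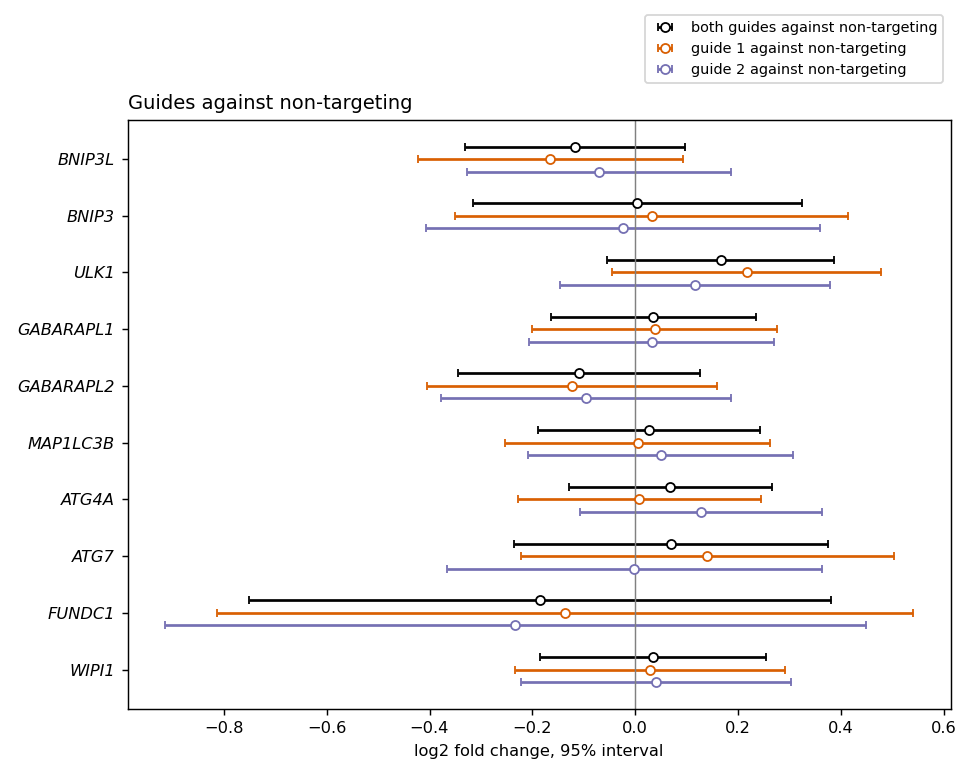
Log2 fold change of each gene against non-targeting (horizontal axis) with 95% intervals, for both guides together (black), guide 1 (orange) and guide 2 (purple). All intervals drawn include 0; the widest belong to FUNDC1 and the point farthest to the right is ULK1 with guide 1, at 0.22.

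BNIP3L, the receptor of erythroid mitophagy, was by far the most abundant of the 10 genes. It had 1940.1 and 1908 CPM with guide 1, 1904 and 2206 CPM with guide 2, and 2475, 1917 and 2081 CPM with the non-targeting guide. The guide 1 libraries lay within 32.1 CPM of each other, and the libraries of both guides overlapped the range of the controls. BNIP3L was at 1989.5 ± 145 CPM (SD, n = 4) with the guides and 2158 ± 287 CPM (SD, n = 3) with the non-targeting guide, a log2 fold change of -0.12 (SE 0.10, 95% interval -0.33 to 0.10, adjusted p = 0.998, edgeR). In percent the guides were at 92.2% of non-targeting with an interval of 79.4% to 107%. Without non-targeting replicate 1 the log2 fold change was -0.0070, and with the GC correction it was -0.09.

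BNIP3, the paralogue of BNIP3L that is best known as a hypoxia-induced receptor, was present at a small fraction of that level. It had 11.9 and 10.4 CPM with guide 1, 10.1 and 11.3 CPM with guide 2, and 11.5, 9.91 and 11.3 CPM with the non-targeting guide, from 105 to 130 counts per library. The groups overlapped throughout, and their means were 10.9 ± 0.84 CPM (SD, n = 4) with the guides and 10.9 ± 0.86 CPM (SD, n = 3) without. The log2 fold change was 0.0038 (95% interval -0.32 to 0.32). Per kilobase of median transcript length, BNIP3L exceeded BNIP3 349-fold and 394-fold with guide 1, 404-fold and 417-fold with guide 2, and 462-fold, 415-fold and 394-fold with the non-targeting guide. The dominance of BNIP3L therefore held in each library, though its size rests on the lengths used: with the longest coding transcript the ratios ran from 138 to 183.

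FUNDC1, a further outer membrane receptor linked to hypoxia, was the rarest of the 10. It had 4.04 and 2.71 CPM with guide 1, 3.55 and 2.74 CPM with guide 2, and 2.83, 3.33 and 5.06 CPM with the non-targeting guide. Its paralogue FUNDC2 had 845 to 1109 counts per library. With 29 to 47 counts per library its replicates spread widely, by 31.4% of the mean among the controls, and the groups overlapped. The log2 fold change was -0.18 (SE 0.26, 95% interval -0.75 to 0.38), so levels from 59.5% to 130% of non-targeting lie within the interval at this depth. The value rests on single libraries: it was -0.35 without non-targeting replicate 1 and 0.08 without non-targeting replicate 3. It was -0.34 without guide 1 replicate 1, -0.05 without guide 1 replicate 2, -0.29 without guide 2 replicate 1 and -0.10 without guide 2 replicate 2. With the GC correction it was -0.10.

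**Figure D3:**
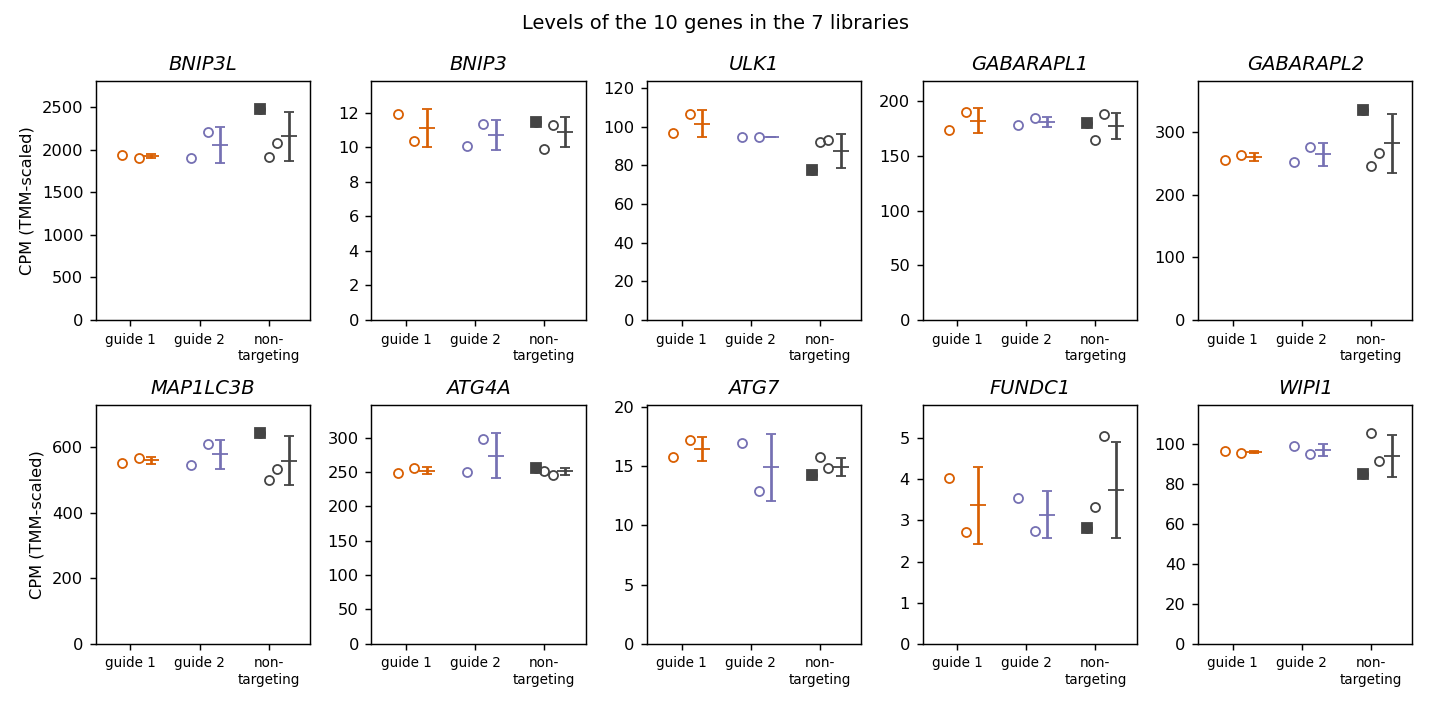
Level of each of the 10 genes in TMM-scaled CPM (vertical axes, each starting at 0) in the 2 guide 1, 2 guide 2 and 3 non-targeting libraries; points are libraries, filled squares are non-targeting replicate 1, and bars are group means with SD. BNIP3L stands highest and FUNDC1 lowest, and ULK1 is the gene in which the 4 guide libraries lie above the 3 controls.

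ULK1, the kinase that starts autophagosome formation, was the 1 gene of the 10 whose groups did not overlap. It had 96.5 and 107 CPM with guide 1, 94.7 and 94.9 CPM with guide 2, and 77.5, 92.0 and 93.0 CPM with the non-targeting guide. The lowest guide library exceeded the highest control by 1.75 CPM, and 3.03% of all tested genes had guide libraries all above the controls in this way. With the guides ULK1 was at 98.2 ± 5.71 CPM (SD, n = 4) and with the non-targeting guide at 87.5 ± 8.62 CPM (SD, n = 3). The log2 fold change was 0.17 (SE 0.10, 95% interval -0.05 to 0.39, unadjusted p = 0.128, adjusted p = 0.998, edgeR), or 112% of non-targeting with an interval of 96.3% to 131%. Without non-targeting replicate 1, the library in which ULK1 was lowest, the value was 0.09, and with the GC correction it was 0.16 (unadjusted p = 0.0492, adjusted p = 0.622, edgeR). ULK1 was thus not called with or without that library.

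WIPI1, which binds PI3P on the forming membrane, was close to ULK1 in CPM. It had 96.6 and 95.7 CPM with guide 1, 99.0 and 94.9 CPM with guide 2, and 85.2, 106 and 91.7 CPM with the non-targeting guide. The 4 guide libraries, with a coefficient of variation of 1.85%, fell inside the range of the controls, which varied by 11.2%. Its log2 fold change was 0.04 (SE 0.10, 95% interval -0.18 to 0.25). Without non-targeting replicate 1 it was -0.03 and without non-targeting replicate 2 it was 0.13, so its sign rests on the first of these libraries. With all libraries and the GC correction the value was 0.03.

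The ATG8 handling enzymes differed in abundance and in precision. ATG4A, a cysteine protease that trims ATG8 proteins of the GABARAP group in particular, had 249 and 255 CPM with guide 1, 250.3 and 298 CPM with guide 2, and 256, 251 and 245 CPM with the non-targeting guide. Of the 7 libraries, 6 lay within 10.4 CPM of each other and guide 2 replicate 2 stood above them. The log2 fold change with both guides was 0.07 (95% interval -0.13 to 0.27), and with guide 2 alone it was 0.13 (95% interval -0.11 to 0.36). ATG7, the E1-like enzyme that activates ATG8 and ATG12, had 15.8 and 17.2 CPM with guide 1, 16.9 and 12.9 CPM with guide 2, and 14.2, 15.8 and 14.9 CPM with the non-targeting guide. Its highest and its lowest value both came from guide libraries, and the groups overlapped. Its log2 fold change was 0.07 (SE 0.14, 95% interval -0.24 to 0.37) with both guides and 0.14 (95% interval -0.22 to 0.50) with guide 1.

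MAP1LC3B, the LC3 protein most used to mark autophagosomes, was second to BNIP3L in CPM. It had 553 and 568 CPM with guide 1, 547 and 609 CPM with guide 2, and 643, 500.0 and 532 CPM with the non-targeting guide. The guide libraries lay inside the range of the controls, whose top value came from non-targeting replicate 1. The log2 fold change was 0.03 (SE 0.10, 95% interval -0.19 to 0.24). Without that library it was 0.14 (unadjusted p = 0.0216, adjusted p = 0.355, edgeR) with both guides and 0.17 (unadjusted p = 0.0200, adjusted p = 0.229, edgeR) with guide 2, neither of which passed. With all libraries and the GC correction the value was 0.01 with both guides and 0.05 with guide 2.

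GABARAPL1 and GABARAPL2 belong to the GABARAP group of ATG8 proteins, which bind ULK1 complex members and several mitophagy receptors. GABARAPL1 had 174 and 190.1 CPM with guide 1, 178 and 185 CPM with guide 2, and 180.1, 164 and 188 CPM with the non-targeting guide. Its groups overlapped, with a log2 fold change of 0.03 (SE 0.09, 95% interval -0.16 to 0.23). GABARAPL2 had 255 and 264 CPM with guide 1, 251 and 276 CPM with guide 2, and 335, 245 and 266 CPM with the non-targeting guide. The value of 335 CPM came from non-targeting replicate 1 and stood above the other 6, which ran from 245 to 276. The log2 fold change was -0.11 (SE 0.11, 95% interval -0.34 to 0.13) with all libraries and 0.03 without that one, so its sign rests on it. With all libraries and the GC correction the value was -0.07.

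Within the ATG8 family, MAP1LC3B, GABARAPL2 and GABARAPL1 came in this order in each library. MAP1LC3B accounted for a mean of 56.1% of the summed CPM per kilobase of median transcript length, GABARAPL2 for 21.2%, GABARAPL1 for 17.2%, MAP1LC3B2 for 2.55%, MAP1LC3A for 1.77% and GABARAP for 1.19%. The GABARAP share varied most in relative terms, between 0.715% and 1.75%. MAP1LC3C had 0 counts in all 7 libraries. GABARAPL2 took 20.4% and 20.5% with guide 1, 20.4% and 20.6% with guide 2, and 23.5%, 21.5% and 21.6% with the non-targeting guide. MAP1LC3B2, a near copy of MAP1LC3B, took 2.65% and 2.67% with guide 1, 2.73% and 2.84% with guide 2, and 1.92%, 2.53% and 2.51% with the non-targeting guide. The guide libraries thus lay below the controls in the GABARAPL2 share and above them in the MAP1LC3B2 share. The shares were not tested, and there is no rate over other features to read this against. The MAP1LC3B share was 55.8% to 57.5% with the guides and 54.6% to 57.2% with the non-targeting guide, and these overlapped. The family summed to 1614 ± 62.3 CPM per kilobase (SD, n = 4) with the guides and 1601 ± 181 (SD, n = 3) with the non-targeting guide. Shares depend on the transcript length: with the longest coding transcript GABARAPL2 took 43.3% and MAP1LC3B 33.8%. MAP1LC3B2 had 230 to 323 counts per library, and its reads and those of MAP1LC3B may not be fully separable, since the treatment of reads with several matches is not given. GABARAP is uncertain too, since its locus in GENCODE v29 overlaps a second coding gene on the same strand.

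**Figure D4:**
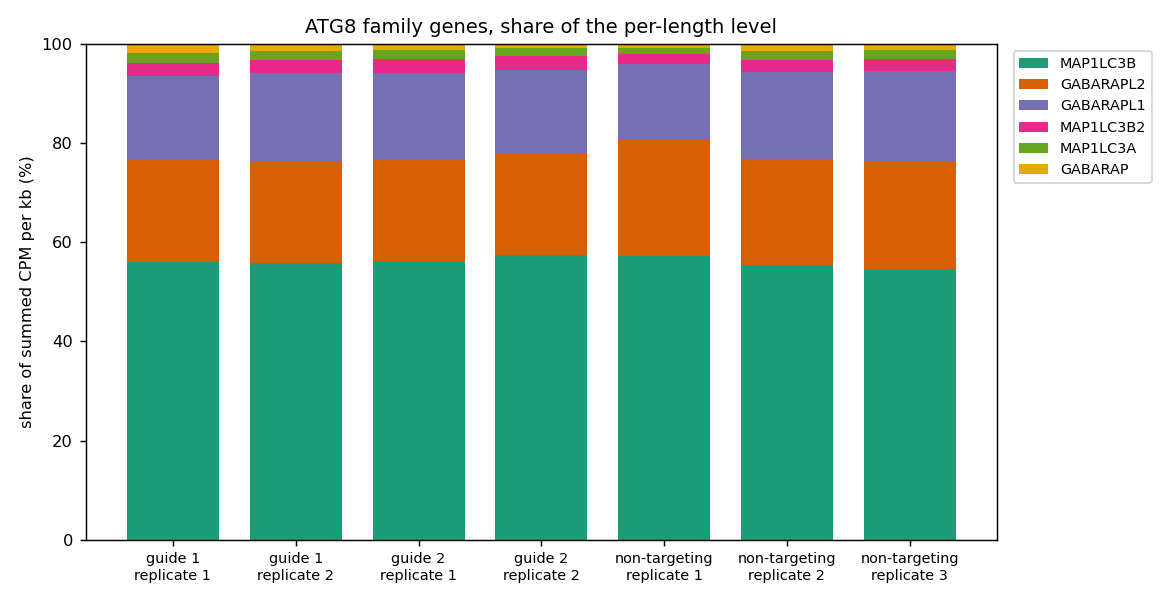
Share of each ATG8 family gene in the family's summed CPM per kilobase of median transcript length (vertical axis, percent) in the 7 libraries, guide libraries on the left. MAP1LC3B holds 54.6% to 57.5% in each, and GABARAPL2 is largest in non-targeting replicate 1 at 23.5%.

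Levels of the 10 genes were then ordered per length, since CPM favours long transcripts. Per kilobase of median transcript length, and as mean ± SD over all 7 libraries, BNIP3L was at 2253 ± 234 CPM, MAP1LC3B at 903 ± 76.9, GABARAPL2 at 342 ± 38.3, GABARAPL1 at 275 ± 13.7 and ATG4A at 179 ± 12.4. The lower part of the order was WIPI1 at 115 ± 7.65, ULK1 at 74.2 ± 6.81, ATG7 at 27.1 ± 2.65, BNIP3 at 5.57 ± 0.40 and FUNDC1 at 3.06 ± 0.76. The ranges of neighbours in this order did not overlap over the 7 libraries. Among 9424 tested genes with a length, BNIP3L ranked 48, MAP1LC3B 150 and GABARAPL2 389, while BNIP3 ranked 6245 and FUNDC1 7263. With the longest coding transcript, GABARAPL2 (270 CPM per kilobase) came before MAP1LC3B (210.0), ATG4A (111) before GABARAPL1 (78.4), and the ranges of BNIP3, ATG7 and FUNDC1 met. Of the 10 genes, BNIP3L stayed first and FUNDC1 last under both lengths.

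**Figure D5:**
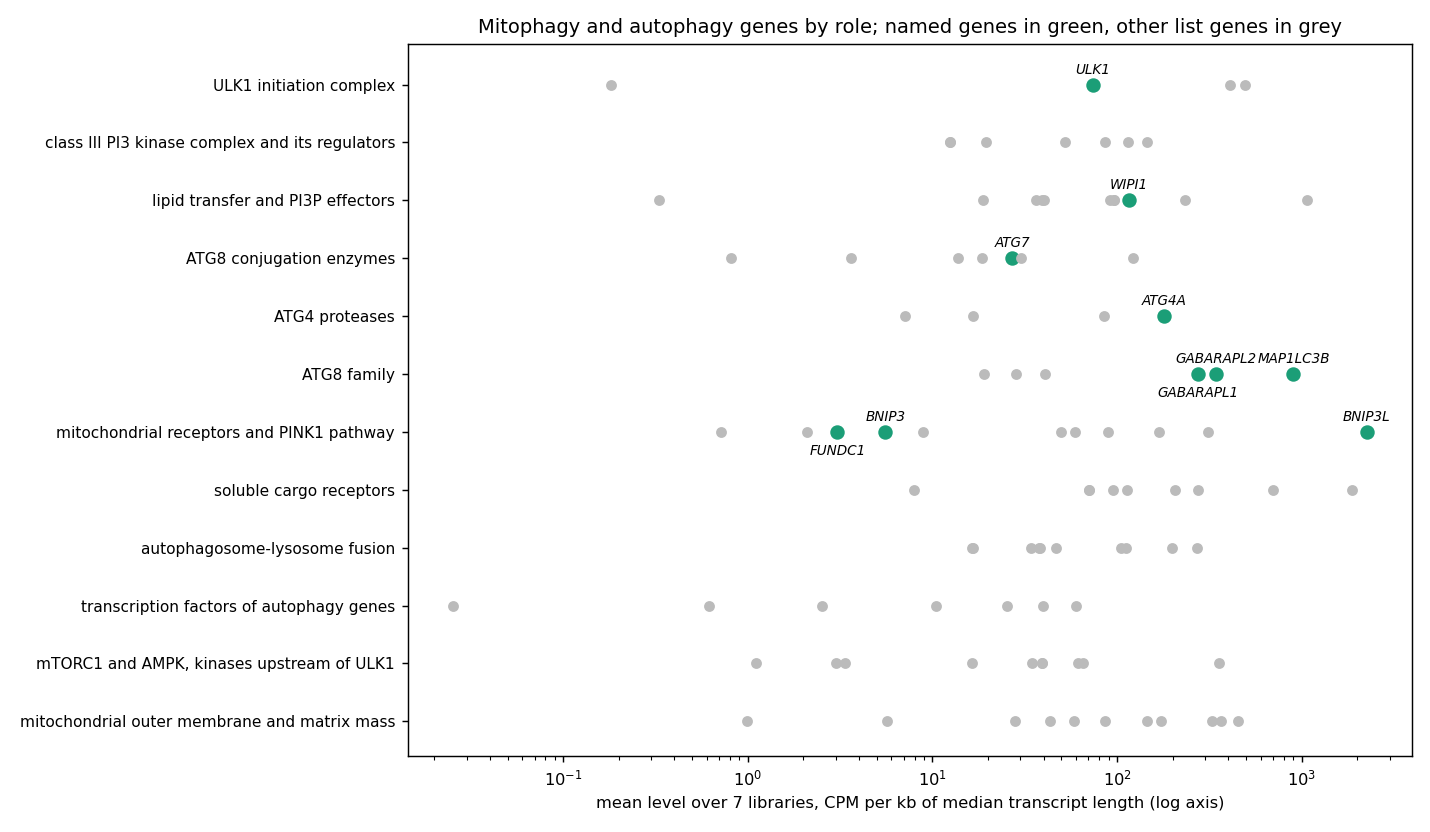
Mean level over 7 libraries in CPM per kilobase of median transcript length (horizontal log axis) for the genes of 12 lists ordered by role; green points are the 10 genes and grey points other list genes with a level above 0 and a length. BNIP3L lies farthest to the right at 2253 and FUNDC1 and BNIP3 lie at 3.06 and 5.57 in the same row. With the longest coding transcript, not drawn, NCOA4 at 1219 comes before BNIP3L at 571.

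The direct comparison of the guides showed no called gene among the 10. Log2 fold changes of guide 2 over guide 1 ran from -0.14 in ATG7 (95% interval -0.54 to 0.25) to 0.12 in ATG4A (95% interval -0.14 to 0.38), with adjusted p from 0.983 to 0.996 (edgeR). BNIP3L differed by 0.10 (95% interval -0.19 to 0.38). ULK1 differed by -0.10 (95% interval -0.39 to 0.19); its 2 guide 2 libraries both lay below its 2 guide 1 libraries, as in 22.2% of all tested genes. Guide 1 and guide 2 share their controls, so their values against non-targeting are given side by side: BNIP3L differed by -0.17 with guide 1 and -0.07 with guide 2, GABARAPL2 by -0.12 and -0.10, ULK1 by 0.22 and 0.12, and FUNDC1 by -0.14 and -0.23. Against non-targeting, ULK1 did not overlap with either guide, where 11.3% of all tested genes were higher in this way with guide 1 and 8.16% with guide 2. None of the 10 genes lay below the controls in all libraries of a guide, as 10.3% of all tested genes did with guide 1 and 6.86% with guide 2.

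The rest of the pathway was read from 12 lists with 94 further genes, of which 89 were tested. None was called higher or lower in any of the 4 comparisons. For both guides, 34 had a positive and 55 a negative log2 fold change, with a median of -0.0348 against -0.015 over all genes. Signs over all tested genes were not counted, so the sign counts of the lists have no share to be read against. Unadjusted p under 0.05 were found in 3 of 89 genes (3.37%) for both guides, 5 (5.62%) for guide 1, 1 for guide 2 and 1 for guide 2 against guide 1, near the shares of all tested genes. MAP1LC3B2 was 1 of the 3 for both guides, at 27.8 ± 1.85 CPM (SD, n = 4) with the guides and 23.2 ± 1.48 CPM (SD, n = 3) with the non-targeting guide (log2 0.26, SE 0.12, unadjusted p = 0.0491, adjusted p = 0.998, edgeR). The others were chosen after their values were seen. PGAM5, a mitochondrial phosphatase that acts on FUNDC1, had 13 and 20 counts with guide 1, 10 and 17 with guide 2, and 7, 5 and 6 with the non-targeting guide (log2 1.30, SE 0.41, adjusted p = 0.998, edgeR). DEPTOR, an inhibitor of mTOR, had 12 and 10 counts with guide 1, 9 and 20 with guide 2, and 25, 22 and 17 with the non-targeting guide (log2 -0.74, SE 0.34). Both rest on few reads in each library. Of the genes with the smallest p in their lists that are not described below, WDFY3 differed by 0.38 (log2, both guides), MAP1LC3A by 0.20, TECPR1 by 0.19, FOXO4 by -0.05, KIAA0226 by -0.11, ATG2B by -0.15, PRKAA1 by -0.17, PRKAB2 by -0.20, GBAS by -0.21 and ATG4C by -0.29. Each had an adjusted p of 0.998 (edgeR). Non-targeting replicate 1 was the highest control in each of these genes with a negative value and in WDFY3. It was the lowest control in MAP1LC3A and TECPR1. PRKAA1 was at 50.2 CPM there, against 32.6 and 32.1 in the other controls, and GBAS at 58.8 against 42.1 and 36.2. ATG4C was at 7.07 CPM there, against 3.96 and 4.85.

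Partners of the 10 genes in the early steps had mean levels from 0.11 CPM (ULK2) to 748 CPM (ATG9A). In the ULK1 initiation complex 0 of 4 tested genes were called, with 2 positive and 2 negative. RB1CC1, the FIP200 scaffold of the complex, was at 305 ± 41.0 CPM (SD, n = 4) with the guides and 321 ± 87.6 CPM (SD, n = 3) with the non-targeting guide. Non-targeting replicate 1 had 422 CPM of RB1CC1, and the other controls had 260 and 283 CPM. ATG13, the adaptor subunit of the complex, differed by 0.03 (log2). ULK2, the paralogue of ULK1, had 0 to 3 counts per library against 863 to 1142 for ULK1, so ULK1 supplied nearly all reads of the pair. Of 8 class III PI3 kinase genes 0 were called and 6 were negative; ATG14, a subunit that directs the kinase to autophagy, was at 90.2 CPM with the guides and 93.5 CPM with the non-targeting guide. Of 10 genes for lipid transfer and PI3P effectors 0 were called and 7 were negative. TMEM41B, a lipid scramblase of the early membrane, was at 24.7 ± 2.53 CPM (SD, n = 4) with the guides and 30.3 ± 12.02 CPM (SD, n = 3) with the non-targeting guide, where non-targeting replicate 1 had 44.2 CPM.

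Among the ATG8 handling genes, 0 of 7 conjugation enzymes and 0 of 4 ATG4 proteases were called. Positive values were found in 6 of 7 and in 3 of 4, with medians of 0.0789 and 0.108, against -0.015 over all tested genes. ATG16L2, 1 of the conjugation enzymes, had only 5 to 14 counts per library. ATG16L1, part of the complex that sets ATG8 on lipid, differed by 0.19 and ATG12, also part of that complex, by -0.10. ATG4B, the most general of the ATG4 proteases, was at 66.5 ± 6.99 CPM (SD, n = 4) with the guides and 59.1 ± 4.82 CPM (SD, n = 3) with the non-targeting guide, a log2 fold change of 0.17. ATG4A led its family, with 179 CPM per kilobase against 85.4 for ATG4B, 16.5 for ATG4D and 7.14 for ATG4C. In the ATG8 family, 5 of 6 tested genes were positive and 0 were called. GABARAP differed with guide 1 by 0.59 (SE 0.20, unadjusted p = 0.0115, adjusted p = 0.877, edgeR), with 188 and 165 counts there, 131 and 98 with guide 2, and 98, 147 and 110 with the non-targeting guide.

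Among mitochondrial receptors and the PINK1 pathway, 0 of 13 tested genes were called. FKBP8, an outer membrane receptor that binds LC3, was the most abundant of the list after BNIP3L, at 311 CPM per kilobase. It had 344 and 338 CPM with guide 1, 293 and 294 CPM with guide 2, and 285, 366 and 374 CPM with the non-targeting guide. Non-targeting replicate 1 alone of the controls lay below the guide libraries. With guide 2 the log2 fold change was -0.22 (SE 0.12, adjusted p = 0.999, edgeR), and without that library it was -0.33 (SE 0.07, adjusted p = 0.00965, edgeR). It was -0.16 with the GC correction (adjusted p = 0.799, edgeR), and guide 2 differed from guide 1 by -0.22 (adjusted p = 0.983, edgeR). FKBP8 and MLST8 were the 2 list genes called in any of the 4 comparisons under any alternative, both without non-targeting replicate 1. MLST8, a subunit of mTORC1, then differed by -0.36 for guide 2 (adjusted p = 0.0471, edgeR). In that setting 128 genes in all were called for guide 2, against 1 with all libraries. With all libraries and the GC correction MLST8 differed by -0.17 for guide 2. PINK1 and PARK2, the kinase and ubiquitin ligase of damage-induced mitophagy, had 33 to 80 and 12 to 26 counts per library, against 19317 to 28020 for BNIP3L. PARK2 differed by 0.86 with guide 1 (SE 0.35, unadjusted p = 0.0286, adjusted p = 0.877, edgeR).

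Downstream and upstream of the 10 genes the lists also held no called gene. Of 9 soluble cargo receptors 5 were positive; NCOA4, the receptor that takes ferritin to the lysosome, was the most abundant of all list genes in CPM. It had 4079 and 4050.2 CPM with guide 1, 3930 and 4547 CPM with guide 2, and 4899, 4137 and 4632 CPM with the non-targeting guide, and the groups overlapped (log2 -0.13, SE 0.09, adjusted p = 0.998, edgeR). Of 10 fusion genes 7 were negative. STX17, the SNARE of the closed autophagosome, had 25.8 and 23.3 CPM with guide 1, 30.2 and 30.0 CPM with guide 2, and 33.1, 29.5 and 30.6 CPM with the non-targeting guide. Its guide 1 libraries lay below the others (log2 -0.34, SE 0.14, unadjusted p = 0.0277, adjusted p = 0.877, edgeR). With guide 1, 10.3% of all tested genes lay below the controls in this way. Of 6 tested transcription factors of autophagy genes 5 were negative, and FOXO3, which drives several of these genes, was at 424 CPM with the guides and 462 CPM with the non-targeting guide. TFEB, a master regulator of lysosomal genes, had 0 or 1 counts per library, whereas its relative TFE3 had 261 to 300. Of 10 mTORC1 and AMPK genes 6 were negative; PRKAA1 was detected at 298 to 568 counts and PRKAA2, the other catalytic subunit of AMPK, at 0 in each library.

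Genes of the mitochondrial outer membrane and matrix were included as a rough measure of mitochondrial RNA supply from the nucleus. Of 12 tested, 0 were called, 3 were positive and 9 negative, with a median log2 fold change of -0.0601, against -0.015 over all tested genes. TOMM22, a receptor of the protein import pore, had 61.6 and 60.3 CPM with guide 1, 56.9 and 53.0 CPM with guide 2, and 69.0, 62.7 and 64.7 CPM with the non-targeting guide. Its 4 guide libraries lay below the controls, as in 2.37% of all tested genes (log2 -0.18, SE 0.10, unadjusted p = 0.0933, adjusted p = 0.998, edgeR). TIMM44, on the matrix side of import, was at 75.8 CPM with the guides and 68.3 CPM with the non-targeting guide. Reads of mitochondrial genes took 0.891% to 1.011% of counts with the guides and 0.874% to 1.083% with the non-targeting guide, which overlapped.

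Several loci of the 10 genes overlap other genes in GENCODE v29, which an unstranded library cannot separate: MAP1LC3B overlaps FBXO31, WIPI1 overlaps ARSG, ATG7 overlaps VGLL4, BNIP3L overlaps PNMA2, and BNIP3, GABARAPL1 and GABARAPL2 have antisense genes. ATG4A and FUNDC1 have no such overlap.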

How the data were processed

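RNA was measured in 7 HUDEP-2 libraries. The table that the authors deposited holds raw counts by gene symbol, unscaled, with a column for each library, per the file headers. STAR and GRCh37 (hg19) are named in the submitters' processing notes. Not given in the sources used here are the counting program, its annotation, its strand setting and its handling of reads with several matches. Smart-seq2 has no molecular identifiers here, so PCR copies count as reads.

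From these counts, genes were kept by filterByExpr with a minimum count of 10 (10212 of 32738), scaled by TMM and fitted with edgeR 4.0.16 (R 4.3.3): a quasi-likelihood model with 3 groups, 7 libraries and 4 residual degrees of freedom. The biological coefficient of variation was 12.5%. Two-sided F-tests were adjusted by Benjamini-Hochberg over all tested genes and a gene with an adjusted p under 0.05 was called. Intervals are 95% intervals of the same fit. Library totals were 9780800 to 11350113. Alternatives were other scaling, no filter, DESeq2 1.42.0, a replicate block, a correction for GC content, leaving out each library, and other transcript lengths. Lengths and GC content came from GENCODE v29, matched by symbol to 92.3% of tested genes. Other versions were limma 3.58.1 and Python 3.11.15. Shares and the BNIP3L to BNIP3 ratio with the longest coding transcript, and the family sum without GABARAP, were added after seeing the data. Scripts were tested on simulated data.

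The members and the 12 lists were chosen with earlier results of these data known. The text names the 10 genes, any list gene called, and the 2 of smallest unadjusted p in each list with a mean of at least 5 CPM. Other list genes were named after their values were seen.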

Additional observations from a re-analysis of the deposited data

How the results depend on the processing

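None of the 10 genes was called in any of the 52 combinations of comparison and alternative, which were other scaling (RLE, total counts), no filter, DESeq2, a replicate block, a correction for GC content and leaving out each library. Of 520 fold changes under an alternative, 447 kept their sign and 73, all uncalled, changed it. The number of called genes moved more, and the cause was not tested. For both guides it was 2, and 8 without the filter, 6 with the GC correction, 4 with DESeq2 and 1 to 53 on leaving out a library. For guide 1 it was 3, and 19 without the filter, 19 with the GC correction, 6 with DESeq2 and 1 to 59 on leaving out a library. For guide 2 it was 1, and 4 without the filter, 3 with the GC correction, 3 with DESeq2 and 1 to 128 on leaving out a library. For guide 2 against guide 1 it was 0, and 2 without the filter, 2 with the GC correction, 2 with DESeq2 and 0 to 32 on leaving out a library. The highest count came without non-targeting replicate 1 in each. The same library's removal gave the 1 called gene each of 2 lists, FKBP8 and MLST8; the other 622 of 624 list counts were 0 as before.

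The labels number the replicates but do not say whether equal numbers pair the libraries. Deviations from the group means correlated at -0.187 to 0.028 between same-numbered libraries. In a group of 2 libraries these deviations mirror each other, so the check cannot decide whether the numbers pair the samples. With the replicate block, called genes were 1 for both guides, 2 for guide 1, 1 for guide 2 and 1 for guide 2 against guide 1. The block changed no call of the 10 genes. Signs that turned under it were those of MAP1LC3B (-0.0024) and FUNDC1 (0.0657) for both guides. For guide 1 they were MAP1LC3B (-0.0251), ATG4A (-0.0086) and FUNDC1 (0.1128), and for guide 2 BNIP3 (0.0061) and FUNDC1 (0.0186).

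Other log2 fold changes that turned sign were close to 0. With the GC correction these were BNIP3 (-0.0380) for both guides, and for guide 1 BNIP3 (-0.0529), GABARAPL1 (-0.0083), MAP1LC3B (-0.0242) and FUNDC1 (0.0184). For guide 2 against guide 1 they were BNIP3 (0.0300), ULK1 (0.0179), GABARAPL1 (0.0409) and GABARAPL2 (-0.0334). With total counts they were MAP1LC3B (-0.0296) and ATG4A (-0.0207) for guide 1, BNIP3 (0.0133) and ATG7 (0.0378) for guide 2, and BNIP3 (0.0114) and GABARAPL1 (0.0607) for guide 2 against guide 1. Without the filter it was ATG7 (0.0048) for guide 2.

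On leaving out each library in turn, signs also turned within these ranges, and no call was made. For both guides they were -0.0617 to 0.0526 in BNIP3, -0.0182 to 0.0777 in GABARAPL1, -0.2006 to 0.0341 in GABARAPL2, -0.0465 to 0.1418 in MAP1LC3B, -0.0359 to 0.1570 in ATG7, -0.3506 to 0.0795 in FUNDC1 and -0.0343 to 0.1270 in WIPI1. For guide 1 they were -0.0719 to 0.1300 in BNIP3, -0.0273 to 0.0997 in GABARAPL1, -0.2136 to 0.0200 in GABARAPL2, -0.0686 to 0.1186 in MAP1LC3B, -0.0100 to 0.0260 in ATG4A, -0.4499 to 0.1280 in FUNDC1 and -0.0411 to 0.1213 in WIPI1. For guide 2 they were -0.1812 to 0.0416 in BNIP3L, -0.1105 to 0.0573 in BNIP3, -0.0212 to 0.0746 in GABARAPL1, -0.1875 to 0.0483 in GABARAPL2, -0.0319 to 0.1651 in MAP1LC3B, -0.0036 to 0.2480 in ATG4A, -0.2078 to 0.1777 in ATG7, -0.4330 to 0.0311 in FUNDC1 and -0.0274 to 0.1327 in WIPI1. For guide 2 against guide 1 they were -0.0118 to 0.2026 in BNIP3L, -0.1546 to 0.0466 in BNIP3, -0.0687 to 0.0588 in GABARAPL1, -0.0409 to 0.0985 in GABARAPL2, -0.0328 to 0.1255 in MAP1LC3B, -0.0075 to 0.2443 in ATG4A, -0.3439 to 0.0415 in ATG7, -0.3597 to 0.2148 in FUNDC1 and -0.0144 to 0.0450 in WIPI1. ULK1 kept its sign in each.

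Levels per length depended on the transcript chosen in 18 of 20 cases. Depth limits FUNDC1 most, with 29 to 47 counts. Leaving out a library of a pair leaves that guide with 1, whose spread is assumed to be that of the other groups.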
